A study of Mus musculus with 6 samples.

Results

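The glucocorticoid receptor gene Nr3c1 and 9 genes known to respond to glucocorticoids were followed in Pax7-nGFP+ limb cells of mouse embryos. The 9 are Fkbp5, Tsc22d3, Sgk1, Dusp1, Cebpb, Cebpd, Zbtb16, Mt1 and Mt2. They were taken by symbol from the array annotation, and all 10 were found among 18182 named genes, through 25 of 34909 named probe sets. Each gene is represented by its probe set with the highest mean over the 6 arrays. The cells came from limbs at E17.5 (3 arrays, replicates A, B and C) and at E12.5 (3 arrays, replicates A, B and C), and the 1 comparison of the design is E17.5 against E12.5. Embryos of both ages carried the Tg:Pax7-nGFP transgene on a mixed C57BL/6 and DBA2 background. Nuclear GFP driven by Pax7 marks muscle stem and progenitor cells. The sort takes cells that hold GFP, which can include daughters of Pax7-expressing cells. Limbs of both ages were dissociated with trypsin before sorting, and the labels name no hormone treatment.

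Glucocorticoids are steroid hormones of the adrenal gland. Their receptor waits in the cytoplasm in a chaperone complex, enters the nucleus on binding hormone, and acts on genes either directly at glucocorticoid response elements or through other transcription factors. In muscle the pathway is known for metabolic and growth control, and in the fetus circulating glucocorticoids rise late in gestation. Several of its responsive genes also answer to other signals: Dusp1, Cebpb and Cebpd to growth factors, cytokines and stress, and the metallothioneins to zinc.

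Values are log2 signals after GCRMA, a method that corrects background from probe sequence, so a difference of 1 is a 2-fold change. Signals under 4 hold little specific signal, and 7777 genes had a mean below that level. Means are given ± SD (n = 3 arrays per age). Differences are E17.5 minus E12.5 with the standard error (SE), and a gene was called when its Benjamini-Hochberg adjusted p from limma, over all 18182 genes, was under 0.05. Median signals of the 6 arrays ran from 3.38 to 3.47, and a signal of 6 was reached by 33.7% to 34.8% of their probe sets. The replicates E17.5 A and B were close to each other: across the 8758 genes whose mean signal reached 6, the SD of their difference was 0.152, against 0.412 to 0.551 for the 5 other pairs of one age. They may not be independent samples, so results are also given with these 2 arrays averaged as 1 sample. The sorted cells held Pax7, which the label implies, and other muscle genes. Not every muscle progenitor gene was held at both ages: Itga7 was at 9.06 ± 0.19 at E17.5 and 2.22 ± 0.08 at E12.5. Pax7 stood at 12.37 ± 0.15 at E17.5 and 11.46 ± 0.28 at E12.5, the determination gene Myod1 at 10.99 ± 0.05 at E17.5 and 10.83 ± 0.22 at E12.5, and the muscle intermediate filament gene Des at 8.50 ± 0.06 at E17.5 and 7.84 ± 0.72 at E12.5.

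The receptor gene and most of the responsive genes were higher at E17.5, but Fkbp5 was not. Of the 10 genes 8 rose, each by at least 2-fold, and 2 (Fkbp5 and Sgk1) were not called. By limma 0 fell, and 0 were lower at an unadjusted p under 0.05. Over all genes 8.21% were called higher and 8.73% lower. Among the 10405 genes whose mean signal reached 4, which include 9 of these 10, the shares were 13.4% and 13.9%. In 8 of the 10 genes all 3 E17.5 arrays lay above all 3 E12.5 arrays, against 14.2% of all genes. The median difference of the 10 genes was 2.60, and that of all genes was 0.00. With E17.5 A and B averaged, 6 of the 10 genes were called higher, against 1021 of all 18182 genes. RNA of sorted populations does not separate more expressing cells from more RNA per cell.

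**Figure D1:**
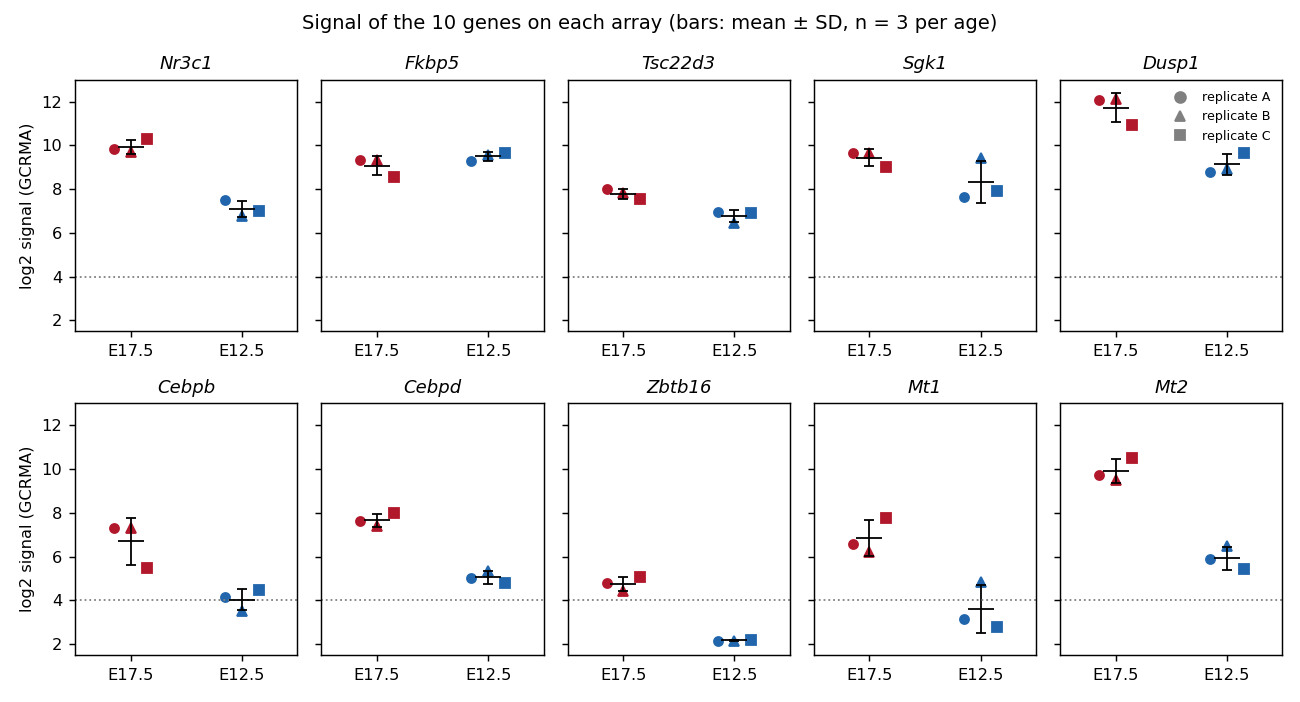
Log2 GCRMA signal (vertical axis) of the receptor gene and the 9 responsive genes on each array at E17.5 (red, left) and E12.5 (blue, right). Marker shapes give replicates A, B and C, black bars the mean ± SD of 3 arrays, and the dotted line a signal of 4. The ages do not overlap in 8 genes and overlap in Fkbp5 and Sgk1.

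Nr3c1, which encodes the receptor itself, had signals of 9.81, 9.68 and 10.28 in the E17.5 arrays, against 7.50, 6.78 and 6.98 in the E12.5 arrays. All E17.5 arrays were more than 2 units above every E12.5 array. The difference was 2.84 (SE 0.25, adjusted p = 0.000589), a 7.14-fold rise with a 95% interval of 4.76 to 10.7. The next brightest probe sets of Nr3c1 both differed by 2.62. It was called higher in all 17 alternative analyses, with the smallest difference, 1.41, where its 6 probe sets were averaged, of which 3 had a mean under 4.

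Fkbp5 encodes FKBP51, a co-chaperone that lowers the hormone affinity of the receptor and is itself among the best known direct targets of the receptor, so that the pair forms a feedback loop. Its signals were 9.32, 9.34 and 8.57 at E17.5, against 9.27, 9.57 and 9.65 at E12.5. The ages overlapped, and the lowest value was in E17.5 replicate C. The difference was -0.42 (SE 0.24, adjusted p = 0.333). Its 95% interval was -0.98 to 0.14, whose upper end is a 1.11-fold rise. Its other probe sets had means under 4. Fkbp5 was called lower where limma weighted the arrays by their spread (-0.30, adjusted p = 0.0319), and its value was -0.17 without E17.5 replicate C.

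Tsc22d3 encodes GILZ, a leucine zipper protein through which glucocorticoids dampen inflammatory transcription. Its signal was 8.0, 7.81 and 7.54 in E17.5 arrays, against 6.94, 6.46 and 6.91 in E12.5 arrays. The ages did not overlap, but the step was the smallest among the called genes, with a difference of 1.01 (SE 0.22, adjusted p = 0.0236). A second probe set of nearly the same brightness differed by 0.41 (adjusted p = 0.265 over all named probe sets). Another differed by 0.07, and the last was under 4 on every array. The call was lost with E17.5 A and B averaged (adjusted p = 0.104) and with the mean of the probe sets (0.38, adjusted p = 0.13). It was also lost on leaving out E17.5 A (0.112), E17.5 B (0.103), E12.5 B (0.0566) or E12.5 replicate C (0.055).

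Sgk1 encodes a serum- and glucocorticoid-regulated kinase that controls ion transport and cell survival. Its signals were 9.67, 9.63 and 8.99 at E17.5, against 7.65, 9.43 and 7.90 at E12.5. E12.5 replicate B lay among the E17.5 arrays, and the other E12.5 arrays lay below them. The difference was 1.10 (SE 0.47, 95% interval -0.03 to 2.24, adjusted p = 0.187). It was called on leaving out E12.5 replicate B (1.66, adjusted p = 0.0117), and it was not called on leaving out any other array. Array weights also gave a call, at 1.69 (adjusted p = 0.000348). Markers of several other cell types also stood high in E12.5 replicate B. Above the mean of E12.5 A and C were 9 of 10 fibroblast genes (median 1.91), 8 of 8 endothelial genes (1.08) and 7 of 7 cartilage genes (0.99). So were 7 of 7 keratinocyte genes (0.88) and 8 of 10 macrophage genes (0.55). Among erythroid genes 5 of 7 were above it, and among muscle progenitor genes 4 of 10. For Schwann and neural genes the count was 2 of 6, and for adipocyte genes 0 of 4. Some of the genes counted, such as Pecam1 (2.44), were under 4 in that array. Mt1 and Mt2 were high in that array as well. The part of these cell types in the Sgk1, Mt1 and Mt2 values was not tested.

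Nr3c1 was left out of the promoter search, and Cebpd and Zbtb16 had no promoter sequence here. Sequences before the RefSeq start sites (build GRCm38.p6) were matched for the other 7 of the 10 genes, in 14 windows of 250 bases. A full glucocorticoid response element, searched as AGAACA and TGTTCT with any 3 bases between them, was present in 1 of them, at 189 bases before 1 of the 6 Sgk1 starts, and in 3 of 32851 windows of the whole table (0.00913%). The window is shown because it is the only one among these genes with the full element, which is in capitals (chr10:21993640-21993889, plus strand).
Sgk1: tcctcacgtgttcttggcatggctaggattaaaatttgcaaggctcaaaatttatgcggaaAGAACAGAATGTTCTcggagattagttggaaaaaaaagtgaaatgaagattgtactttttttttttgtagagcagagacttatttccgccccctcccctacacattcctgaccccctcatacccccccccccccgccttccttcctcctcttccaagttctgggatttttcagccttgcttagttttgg
The 6-base arm AGAACA, searched on both strands, makes up both ends of the full element and occurs once more in that window. It was also found in other Sgk1 windows, in 1 of 3 Tsc22d3 windows and in 16.1% of all windows. The Fkbp5 window and the Cebpb window held no match to any motif searched. A match is a run of letters and does not show binding.

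Dusp1 encodes a phosphatase that switches off MAP kinases and is induced within minutes by many stimuli, glucocorticoids among them. It had signals of 12.06, 12.13 and 10.95 at E17.5, against 8.80, 8.92 and 9.66 at E12.5. The ages did not overlap, and E17.5 replicate C was the lowest of its age. Dusp1 rose by 2.59 (SE 0.37, adjusted p = 0.00461), a 6.01-fold change with a 95% interval of 3.25 to 11.1, and it was called in all 17 alternatives. Its promoter window is shown for the cyclic AMP response element TGACGTCA, in capitals, which starts 143 bases before the start site (chr17:26508473-26508722, minus strand). This motif was present in 1.55% of all windows.
Dusp1: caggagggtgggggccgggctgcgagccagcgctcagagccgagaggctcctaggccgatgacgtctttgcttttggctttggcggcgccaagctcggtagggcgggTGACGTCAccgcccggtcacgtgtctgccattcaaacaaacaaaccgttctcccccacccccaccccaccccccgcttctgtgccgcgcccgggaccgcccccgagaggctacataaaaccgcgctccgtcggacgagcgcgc
The AP-1 motif TGANTCA, found in 6.75% of all windows, was not in the Dusp1 window.

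The C/EBP genes encode basic leucine zipper transcription factors. Cebpb, which acts in stress, inflammatory and fat cell programs, was at 7.31, 7.30 and 5.46 in E17.5 arrays, against 4.13, 3.51 and 4.46 in E12.5 arrays. The ages did not overlap, E17.5 replicate C was the lowest of its age, and the E12.5 values lay about the background level of 4. The difference was 2.66 (SE 0.56, adjusted p = 0.0203), and it was 1.51 by the mean of its probe sets, of which the other lay under 4. The call was lost with E17.5 A and B averaged (2.35, adjusted p = 0.0666) and on leaving out E17.5 A (adjusted p = 0.0657), E17.5 B (0.0706) or E12.5 B (0.0651).

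Cebpd, which glucocorticoids and cytokines induce, had signals of 7.61, 7.40 and 7.97 at E17.5, against 5.02, 5.36 and 4.77 at E12.5. Both ages were tight, and the difference of 2.61 (SE 0.27, adjusted p = 0.00111) was called in all 17 alternatives. Its other probe set was under 4 on all arrays, and the mean of both gave 1.31. Of the 5 C/EBP family genes fitted, 2 rose (Cebpb and Cebpd), 0 fell by limma and 1 was lower at an unadjusted p under 0.05. The difference was 0.05 (SE 0.14) for Cebpg, -0.41 (SE 0.14) for Cebpa, whose values were under 4 at both ages, and 0.31 (SE 0.24) for the stress-induced Ddit3. With the mean of its probe sets Ddit3 was called higher (1.54, adjusted p = 0.00115).

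Zbtb16 encodes PLZF, a zinc finger transcriptional repressor that acts in limb patterning and stem cell maintenance. It had signals of 4.79, 4.4 and 5.05 in E17.5 arrays, against 2.15, 2.15 and 2.19 in E12.5 arrays. The E12.5 values lay in the background range, and the E17.5 values only just above it. The difference was 2.58 (SE 0.17, adjusted p = 0.000199). With every value under 4 raised to 4 it was 0.75 (adjusted p = 0.0542), and by the mean of its 3 probe sets it was 1.29. A second probe set had 4.29 and 4.21 in E17.5 A and B but 2.5 in E17.5 C, against 2.31 to 2.47 at E12.5.

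The metallothioneins Mt1 and Mt2 encode small cysteine-rich proteins that bind zinc and copper. Mt2 was at 9.75, 9.48 and 10.51 in E17.5 arrays, against 5.87, 6.47 and 5.41 in E12.5 arrays. The lowest E17.5 array stood 3 units above the highest E12.5 array. Mt2 rose by 4.0 (SE 0.36, adjusted p = 0.000682), a 16-fold change with a 95% interval of 8.78 to 29.0, and was called in all 17 alternatives. Mt1 was at 6.55, 6.20 and 7.77 in E17.5 arrays, against 3.16, 4.85 and 2.77 in E12.5 arrays. The ages did not overlap, although E12.5 replicate B was well above the other E12.5 arrays, which lay in the background range. Mt1 rose by 3.25 (SE 0.65, adjusted p = 0.0165), and by 2.56 with values under 4 raised to 4 (adjusted p = 0.0362). On leaving out E12.5 replicate C the adjusted p was 0.0525. That probe set can match several transcripts. The other Mt1 probe set lay between 2.16 and 2.41 on all arrays and differed by 0.09 (adjusted p = 0.357 over all named probe sets), and the mean of both gave 1.67.

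In the RefSeq gene list Mt4, Mt3, Mt2 and Mt1 are neighbours, in that order, with 1 annotated noncoding gene among them. The other cluster members Mt3 and Mt4 were under 4 on all 6 arrays, with differences of -0.03 and 0.03. The Mt2 window is shown for metal response element cores, TGCGCNC or TGCACNC on either strand, in capitals. It held 3, starting 223, 128 and 50 bases before the start site (chr8:94172368-94172617, plus strand).
Mt2: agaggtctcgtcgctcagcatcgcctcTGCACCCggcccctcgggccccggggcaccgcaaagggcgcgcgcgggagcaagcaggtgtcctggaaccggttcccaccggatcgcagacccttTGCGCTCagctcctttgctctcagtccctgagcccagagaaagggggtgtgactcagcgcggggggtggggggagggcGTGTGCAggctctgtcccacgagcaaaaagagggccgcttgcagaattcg
The Mt1 window held 1, and 21.4% of all windows held at least 1. The Mt2 window also held 1 AP-1 motif, 79 bases before the start, and 1 C/EBP motif (TTGCNNAA, in 9.56% of all windows), 12 bases before it. Mtf1, the zinc-sensing factor that acts at these elements, was at 6.44 ± 0.03 at E17.5 and 5.51 ± 0.38 at E12.5 (difference 0.93, SE 0.26, adjusted p = 0.0582). It was called higher in 6 of the 17 alternatives, with adjusted p between 0.0173 and 0.0478 in those. The zinc exporter gene Slc30a1, another target of Mtf1, was at 8.13 ± 0.28 at E17.5 and 8.12 ± 0.40 at E12.5 (adjusted p = 1). Of the 9 genes of the metal response list, which leaves out Mt1 and Mt2, 1 rose (Gclm, 0.97), 1 fell (Slc39a10, -0.43) and 7 were not called, with a median of 0.03. Both calls were lost with E17.5 A and B averaged (adjusted p = 0.054 for Gclm and adjusted p = 0.072 for Slc39a10). On leaving out E17.5 A or E17.5 B they were lost too, with adjusted p of 0.0521 and 0.0581 for Gclm and 0.0772 and 0.07 for Slc39a10.

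**Figure D2:**
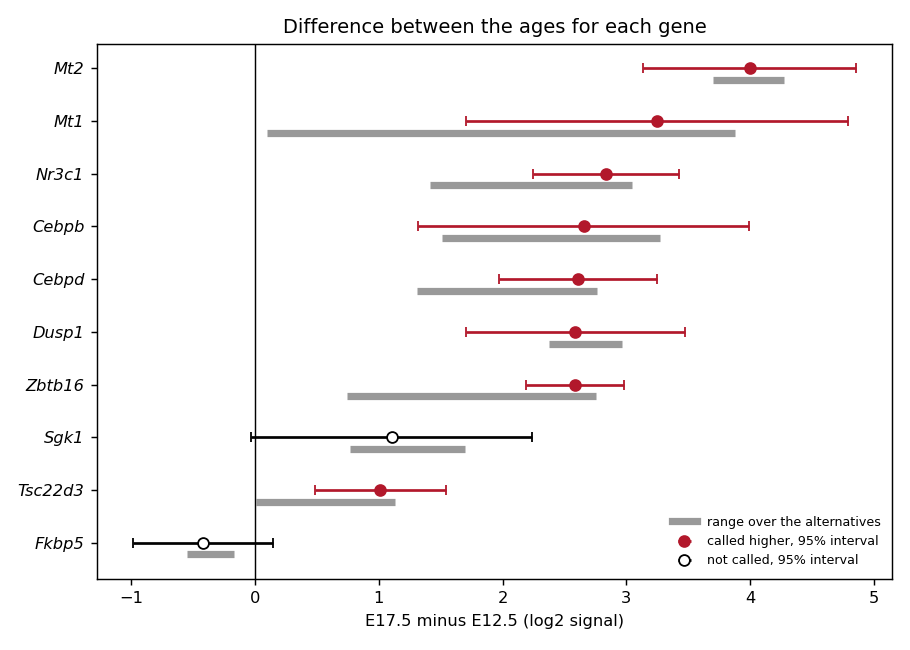
Difference between E17.5 and E12.5 in log2 signal (horizontal axis) for each gene. Points and thin bars are the estimate and its 95% interval (filled red, called higher; open, not called), and grey bars span the 17 alternatives (16 for Zbtb16). The intervals of all called genes but Tsc22d3 lie above 1, and those of Fkbp5 and Sgk1 include 0.

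Across all 25 probe sets of the 10 genes, 12 had a mean under 4 and 13 a mean of at least 4. Of those 13, 9 were called higher in a fit over all named probe sets, in which 5.75% of probe sets were called higher and 5.59% lower. The 4 that were not called belonged to Fkbp5, Sgk1 and Tsc22d3. Of the 12 dim ones 1 was called, the main probe set of Zbtb16. By limma 0 of the 25 were called lower, and the same count was lower at an unadjusted p under 0.05.

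**Figure D3:**
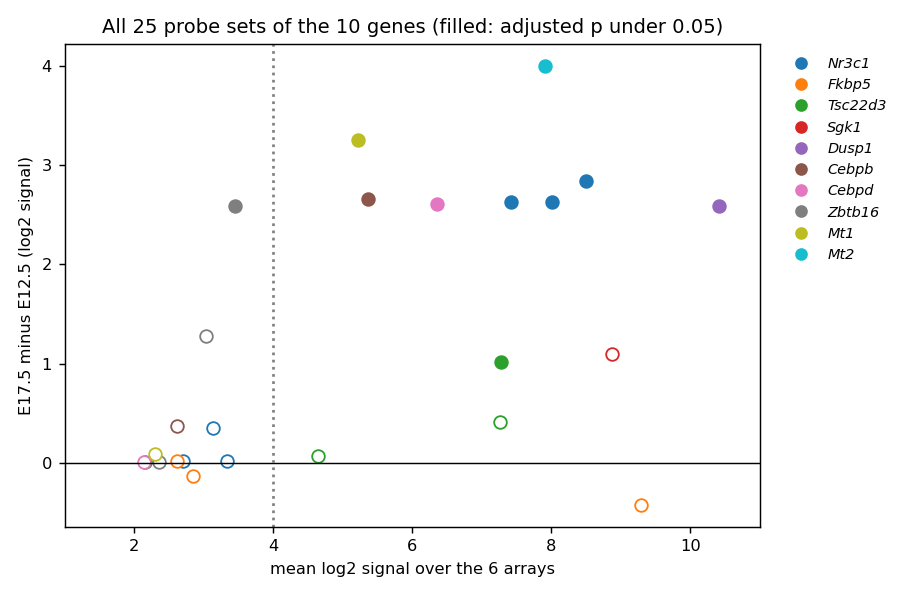
Difference between E17.5 and E12.5 (vertical axis, log2) against the mean log2 signal over 6 arrays (horizontal axis) for each of the 25 probe sets, coloured by gene and filled where the adjusted p was under 0.05. The dotted line marks a signal of 4. The 3 bright probe sets of Nr3c1 lie between 2.62 and 2.84, and those of Tsc22d3 spread between 0.07 and 1.01.

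The 10 genes divided within ages as well. In E17.5 replicate C, 5 genes were below the mean of A and B: Cebpb by -1.85, Dusp1 by -1.15 (differences, C minus the mean of A and B), Fkbp5 by -0.76, Sgk1 by -0.66 and Tsc22d3 by -0.36. The other 5 were above it: Mt1 by 1.40, Mt2 by 0.90, Nr3c1 by 0.54, Cebpd by 0.46 and Zbtb16 by 0.46. Among the E12.5 arrays, replicate B was higher than the mean of A and C in Mt1 (1.89), Sgk1 (1.66), Mt2 (0.83), Cebpd (0.46) and Fkbp5 (0.11). Replicate B was below that mean in the other 5 genes, furthest in Cebpb (-0.79). Mt1 and Mt2 thus had their highest array in the same replicate at each age. The Mt1 probe set can match several transcripts, and whether its signal is separate from that of Mt2 was not tested. The comparisons within an age rest on single arrays, and the values are a description.

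**Figure D4:**
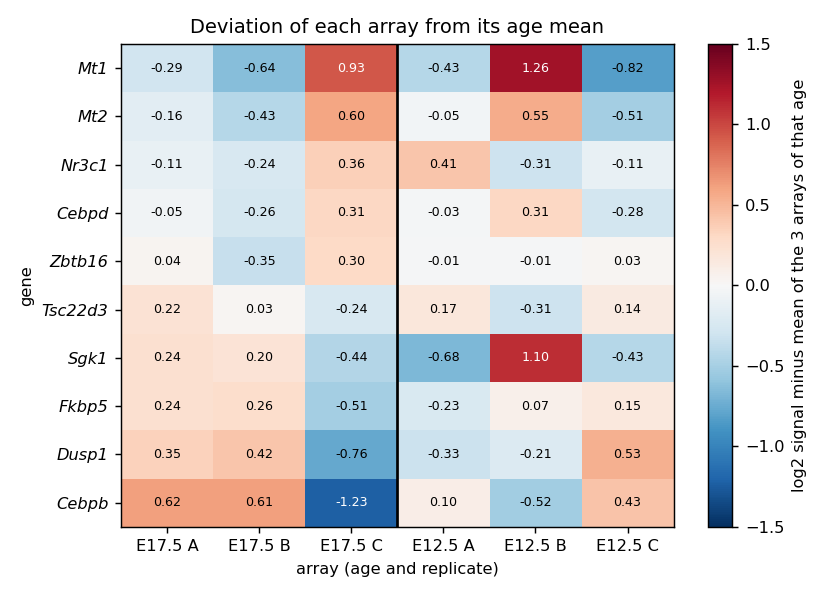
Log2 signal of each array minus the mean of the 3 arrays of its age (colour and printed value) for the 10 genes (rows) in the E17.5 arrays (left) and E12.5 arrays (right). Rows run by the value of E17.5 C relative to A and B, with Mt1 at the top and Cebpb at the bottom.

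Genes known to be switched on when tissue is digested into cells were mostly higher at E17.5 too. Of 24 immediate early and heat shock genes, none of them among the 10, 17 rose, 1 fell (Ier5, -0.86) and 6 were not called, with a median of 3.03. Their summed linear signal ran from 69850 to 100200 at E17.5, against 16370 to 27420 at E12.5. The AP-1 subunit gene Fosb rose by 8.08 (SE 0.24, adjusted p = 2.65e-05), Atf3 by 5.95, the heat shock gene Hspa1a by 5.73 and Junb by 5.27. The E12.5 means of these 4 genes lay under 4 (2.27, 2.91, 3.12 and 3.68), where signals hold little specific signal. In E17.5 replicate C 21 of the 24 were below the mean of A and B, with a median of -0.50 over the 24. Of the 10 genes 5 were below that mean, Cebpb and Dusp1 furthest. The other 5 were above it, Mt1, Mt2 and Cebpd among them. In that array 8 of 10 fibroblast genes (median -0.89), 6 of 7 cartilage genes (-1.08) and 8 of 10 muscle progenitor genes (-0.11) were below that mean too. The part of the digestion response or of other cell types in the rises of Dusp1, Cebpb, Cebpd, Mt1 and Mt2 was not tested.

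Among genes that supply, fold or assist the receptor, 1 enzyme gene of hormone metabolism fell, another rose and the last was in the background range. Hsd11b2, which inactivates glucocorticoids, was at 5.30, 5.03 and 6.14 in E17.5 arrays, against 8.18, 7.55 and 7.33 in E12.5 arrays. It fell by 2.20 (SE 0.37, adjusted p = 0.00895). H6pd, which supplies the cofactor for hormone reactivation in the endoplasmic reticulum, was at 9.0, 8.92 and 9.23 in E17.5 arrays, against 7.28, 7.07 and 7.29 in E12.5 arrays. It rose by 1.84 (SE 0.15, adjusted p = 0.000525). The ages did not overlap in either gene, and both were called in all 17 alternatives. The reactivating enzyme gene Hsd11b1 was in the background range, at 3.16 ± 0.03 at E17.5 and 3.11 ± 0.05 at E12.5. So was Nr3c2, which encodes the mineralocorticoid receptor, at 3.34 ± 0.30 at E17.5 and 3.05 ± 0.11 at E12.5.

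The chaperone gene Hsp90aa1 differed by 0.01 (SE 0.08, 95% interval -0.18 to 0.19). Fkbp4, whose product FKBP52 favours receptor activity in opposition to FKBP51, fell by 0.72 (SE 0.15, adjusted p = 0.0182), but the call was lost with E17.5 A and B averaged (adjusted p = 0.0656). It was also lost on leaving out E17.5 A (0.0672), E17.5 B (0.0699), E12.5 B (0.0614) or E12.5 replicate C (0.0642), and the value was 0.52 (adjusted p = 0.374) by a probe set specific to 1 transcript. The co-chaperone gene Stip1 fell by 0.82 and the chromatin remodelling gene Smarca4 fell by 0.78 (adjusted p = 0.0438 and adjusted p = 0.0492). Each of these calls was lost in most fits that left out 1 array. Of the 19 genes of this list 1 rose, 4 fell and 14 were not called, with a median of 0.01.

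Other genes widely known to be induced by glucocorticoids were divided. Of 32 fitted, 15 rose, 4 fell and 13 were not called, with a median of 0.70 (11 and 4 with E17.5 A and B averaged). Per1, a clock gene with a direct glucocorticoid response, was at 8.15, 8.18 and 8.73 in E17.5 arrays, against 6.66, 6.24 and 6.36 in E12.5 arrays. The ages did not overlap, and Per1 rose by 1.93 (SE 0.23, adjusted p = 0.00218). Nfkbia, which encodes an inhibitor of NF-kappaB, rose by 1.43 (SE 0.09, adjusted p = 0.00019). The largest rises were those of Pdk4, a brake on glucose oxidation (4.13), the mRNA decay factor gene Zfp36 (3.95), the annexin gene Anxa1 (3.33) and the stress gene Gadd45a (2.97).

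The falls were those of Fam107a (-4.66), Angptl4 (-2.33), Crispld2 (-2.33) and the muscle atrophy ligase gene Trim63 (-2.02). Fam107a and Crispld2 were under 4 on average at E17.5, and the value of Angptl4 was 0.40 (adjusted p = 0.56) by a probe set specific to 1 transcript. Cdkn1a rose by 1.8 (adjusted p = 0.0327) and Errfi1 by 0.63 (adjusted p = 0.0179). The call of Cdkn1a was lost without any one of the E12.5 arrays (adjusted p 0.0521 to 0.0998). That of Errfi1 was lost with E17.5 A and B averaged (adjusted p = 0.0812) and on leaving out E17.5 A (0.0817), E17.5 B (0.0848) or E12.5 C (0.0686). Klf9 (0.77, SE 0.21, adjusted p = 0.0543) and Ddit4 (0.10, SE 0.32, adjusted p = 0.924) were not called. Klf9 was called higher with array weights (adjusted p = 0.00758), with the filter at a mean of 4 (0.0299), with quantile normalization (0.0478) and with centring (0.0469). Several genes of this list, such as Zfp36 and Gadd45a, are also known from the digestion response, and that overlap was not tested.

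Close relatives of the 10 genes did not move as one. Among 10 dual-specificity phosphatases, Dusp1 included, 4 rose, 1 fell and 5 were not called, with a median of 0.85. Dusp8 rose by 4.04 (SE 0.26, adjusted p = 0.000222) and Dusp16 by 1.3, whereas Dusp9 fell by 5.09 (SE 0.24, adjusted p = 7.63e-05). The lower age of Dusp8 (E12.5, 2.73 ± 0.24) and that of Dusp9 (E17.5, 3.19 ± 0.20) lay in the background range. Dusp10 rose by 1.96 (adjusted p = 0.0384), a call lost with E17.5 A and B averaged (adjusted p = 0.127) and on leaving out E17.5 A (0.126), E17.5 B (0.133), E12.5 A (0.0798) or E12.5 B (0.0979). Among 5 paralogues of Tsc22d3 and Sgk1, 1 rose (Tsc22d2, 0.87, SE 0.13, adjusted p = 0.00553), and 0 fell by limma, with 0 lower at an unadjusted p under 0.05. The differences of the others were -0.15 for Tsc22d1, -0.33 for Tsc22d4, -0.39 for Sgk3 and -0.01 for Sgk2, which is in the background range. By probe sets specific to 1 transcript Tsc22d1 was called lower (-1.04, adjusted p = 0.00843). Tsc22d4 was called lower with array weights (-0.49, adjusted p = 0.00642).

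**Figure D5:**
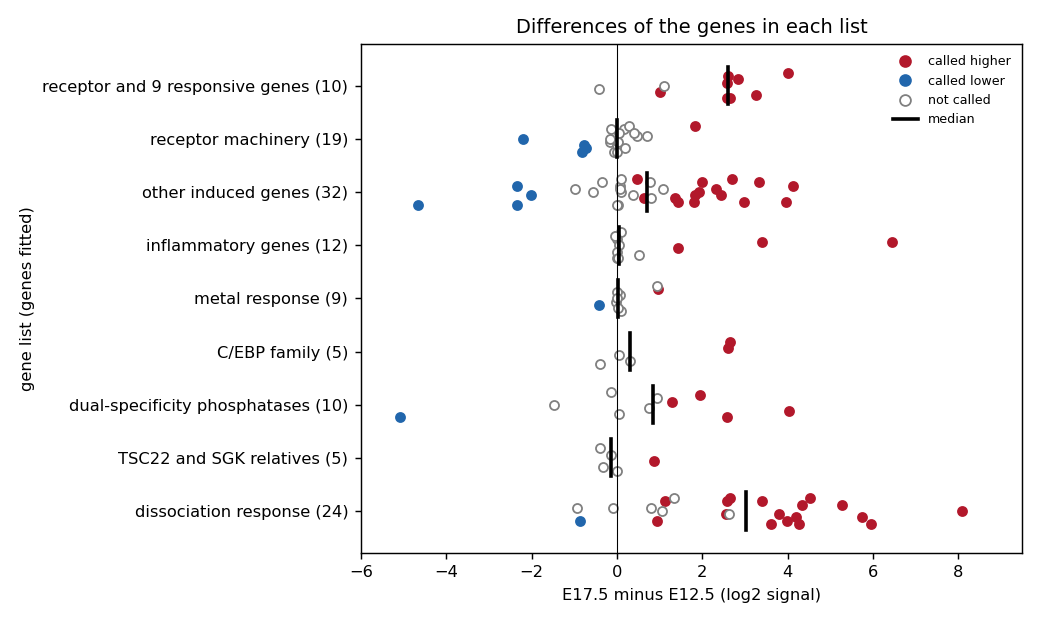
Difference between E17.5 and E12.5 in log2 signal (horizontal axis) of each gene in 9 lists (rows, with the number of genes fitted). Red points were called higher, blue points lower and open points neither, and black bars are medians. The median is 2.60 for the receptor and responsive genes, 0.70 for other induced genes, 3.03 for digestion-response genes and 0.01 for the receptor machinery.

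Markers of other cell types also differed between the ages. The summed signal of 7 erythroid genes ran from 73.2 to 96.2 at E17.5, against 8400 to 31480 at E12.5. Most of the E12.5 sum was Hbb-y (mean 14.08), as the next brightest gene there, Hba-x, was at 6.99. The globin genes Hbb-y (-10.41), Hbb-bh1 and Hba-x fell, and 4 genes were not called. The summed signal of 7 cartilage genes ran from 300.2 to 994 at E17.5, against 3472 to 6110 at E12.5. Most of that E12.5 sum was Col9a1 (mean 11.77), the 1 that fell (0 rose by limma, 0 higher at an unadjusted p under 0.05). Of 7 keratinocyte genes 3 fell and of 6 Schwann and neural genes 2 fell, while of 10 fibroblast genes 2 rose and 3 fell. Under 4 on all 6 arrays were 5 of 10 macrophage genes (Ptprc and Aif1 among them), 2 of 8 endothelial genes (Pecam1 among them) and 2 of 4 adipocyte genes (Adipoq among them). Others of these lists were above that level on some arrays. Kdr (6.04), Esam (6.39), Cldn5 (5.05) and Csf1r (6.42) had their highest value in E12.5 replicate B. Tek (mean 10.18), Cd68 (6.68), Fabp4 (7.82) and Lpl (11.13) were instead higher at E17.5. Of 10 macrophage genes 1 rose (Cd68, 2.99) and 1 fell (Laptm5, -1.77), of 8 endothelial genes 1 rose (Tek, 4.88), and of 4 adipocyte genes 2 rose (Fabp4, 4.26, and Lpl, 0.99). Of the 10 muscle progenitor genes fitted 4 rose (Itga7 among them, from the background range at E12.5) and 1 fell (Pax3, -2.56). Apart from these marker levels, the part of other cell types in the 10 genes was not tested.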

How the data were processed

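RNA of sorted Pax7-nGFP+ limb cells was amplified from 100 ng in a two-cycle 3' protocol and hybridised to 6 single-colour Affymetrix arrays, per the labels' protocols. The authors deposited 1 log2 signal for each probe set and array. GCRMA is named in the submitters' processing notes, and its version is not given in the sources used here. Depth is unknown in counts, and the number of arrays limits the precision.

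Gene names came from the platform annotation and were updated to RefSeq symbols by entrez ID (GRCm38.p6, used for names and promoter sequences only). Of 44994 probe sets 34909 carried 1 symbol, 34705 of them with an entrez match. Those with several symbols (931) or no name here (9154) were not used. The ages were compared in limma 3.58.1, R 4.3.3 (moderated variances with a trend on intensity, no filter) over 18182 genes, with Benjamini-Hochberg adjustment. The fit was tested on simulated data with independent arrays, which cannot show what the closeness of E17.5 A and B does to the p-values. Motifs were searched on both strands.

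The members and lists were chosen with earlier results of these data known. Named genes are the 10 members, all genes of lists with up to 6 fitted genes, up to 4 rises and 4 falls of other lists among called genes with a signal of at least 6, and 15 preset genes, of which Hsp90ab1 and Ptges3 are not analysed here. Lists of other cell types were to be named by their 2 brightest genes. For the fibroblast, keratinocyte, and Schwann and neural lists only counts are given, and the cartilage list is named by Col9a1 alone. Genes outside this rule (Ptprc, Aif1, Pecam1, Adipoq, Kdr, Cldn5, Csf1r, Mt3, Mt4, Cxcl10, Itga7, Pax3, Hbb-bh1) were chosen after their values were seen. The labels call the replicates biological; whether each came from separate litters is not stated, so p-values measure the spread between these arrays. The 17 alternatives changed the variance prior (no trend, robust), used array weights, took the mean of probe sets or those specific to 1 transcript, set a filter and a floor at 4, added quantile normalization or centring on bright genes (mean of at least 8), used a replicate block, averaged E17.5 A and B, or left out each array. Figures were drawn with matplotlib 3.10.9.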

Additional observations from a re-analysis of the deposited data

How the results depend on the processing

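Nr3c1, Cebpd, Dusp1 and Mt2 were called higher in all 17 alternatives, Zbtb16 in 15 of 16 (the filter at a mean of 4 removes it), Mt1 in 14, Cebpb in 11 and Tsc22d3 in 9 of 17. No difference of the 10 genes changed sign. With a replicate block 5 of the 10 were called higher, against 1091 of all 18182 genes. The adjusted p with the block was 0.0552 for Cebpb, 0.0522 for Mt1 and 0.0702 for Tsc22d3. Same-lettered arrays of the 2 ages correlated at -0.38 (A), 0.25 (B) and -0.07 (C) in their deviations from the age means. Pairs of different letters ran from -0.34 (E17.5 C with E12.5 B) to 0.37 (E17.5 C with E12.5 A). With so few arrays per age, the deviations within an age depend on each other. These correlations therefore cannot decide whether same-lettered arrays were processed together. By probe sets specific to 1 transcript Mt1 was at 0.09 (adjusted p = 0.308) and Tsc22d3 at 0.01 (adjusted p = 0.92). With values under 4 raised to 4 the adjusted p of Cebpb was 0.0546. Array weights called 1 of the 10 lower (Fkbp5) and Sgk1 higher (1.69), and gave 3204 higher and 5219 lower calls over all genes, 24 lower calls over the pathway lists, 7 among other induced genes and 2 in the digestion response.

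With E17.5 A and B averaged, 1021 genes were higher and 825 lower over all genes, with 7 lower over the pathway lists. The block gave 1091 higher and 1014 lower over all genes, with 0 lower in the digestion response. Without 1 array, calls over all genes ran from 970 to 1553 higher and from 771 to 1776 lower, with 6 to 13 lower in the pathway lists and 0 to 2 in the digestion response. The lower calls numbered 771 without E17.5 B, 836 without E17.5 A and 1052 without E12.5 C. Of the other named genes, some values turned sign, all without a call under the alternative. By probe sets specific to 1 transcript these were Fkbp4 (0.52), Angptl4 (0.40) and Tsc22d4 (0.063). With array weights they were Hsp90aa1 (-0.014), Ddit4 (-0.26), Slc30a1 (-0.079) and Ddit3 (-0.029), with the mean of probe sets Slc30a1 (-0.087), with quantile normalization Hsp90aa1 (-0.0028), and with centring Hsp90aa1 (-0.02) and Slc30a1 (-0.017). Without 1 array they were Hsp90aa1 (-0.017 to 0.023), Ddit4 (-0.18 to 0.34), Slc30a1 (-0.18 to 0.22) and Cebpg (-0.035 to 0.18). The causes were not tested. Signal over background limits Zbtb16, Mt1 and Cebpb most, whose E12.5 values lay near or under 4.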

Other observations

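Inflammatory genes that glucocorticoids are widely known to repress showed no fall at E17.5 that passed the test. Of 12 fitted, 3 rose, 0 fell by limma (0 lower at an unadjusted p under 0.05) and 9 were not called, with a median of 0.04, and 9 were under 4 on all 6 arrays, where a fall could not be seen. The chemokine gene Cxcl1 was at 9.66 ± 0.48 at E17.5 and 3.22 ± 0.81 at E12.5 (difference 6.44, SE 0.46, adjusted p = 0.000293). Vcam1, an adhesion molecule gene, was at 12.87 ± 0.06 at E17.5 and 9.47 ± 0.92 at E12.5 (difference 3.39, SE 0.42, adjusted p = 0.0025). Cxcl10 rose by 1.43 (adjusted p = 0.0056). The E12.5 means of Cxcl1 and Cxcl10 (3.22 and 3.68) lay under 4, where signals hold little specific signal.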
